A study of Mus musculus with 34 samples.

Results

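Among embryonic stem cell lines from 2 inbred mice, C57BL/6J (called B6) and DBA/2J (called D2), 215 regions carried the histone mark H3K9me3 in every D2 line and next to none of it in any B6 line. They were chosen by read counts from a list of 248336 regions, of which 229016 lie off chromosomes 13, X and Y. A member holds at least 60 counts summed over the libraries of 3 separate D2 lines and at most 5 summed over those of 3 separate B6 lines. Of 19773 regions that reached the D2 sum, 215 met the B6 limit. With the strains exchanged, the same limits found 37 regions. Members within 5 kb of each other were joined into 194 loci, of which 175 hold 1 member, 17 hold 2 and 2 hold 3.

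The separate lines are B6 4-1, 4-4 and 5-1 and D2 2-9, 5-5 and 203, with 1 library each per mark. The regions were then followed in repeated libraries of 1 line per genotype for 4 genotypes. B6 5-1 and D2 5-5 are inbred, and both were also among the lines that chose the members. QJ 6-1 belongs to the congenic strain B6.D2-(rs30079041-rs51756099)/Bakr, called B6-13D2 here, which has a D2 segment of chromosome 13 on B6 chromosomes. XE 2-4 is the reciprocal line D2-13B6, with the B6 segment on D2 chromosomes. Its labels name it D2.B6-(rs29224292-rs13469455)/Bakr, whereas the description of the series ends the interval at rs51756099, so the end of that segment is uncertain. The name of B6-13D2 starts at rs30079041 and that of D2-13B6 at rs29224292, so the 2 segments may not cover the same interval. For H3K9me3 the repeats number 3 in B6, 3 in D2-13B6, 2 in D2 and 2 in B6-13D2, and for H3K27ac 3 in each line. All cells were grown with serum, LIF and the inhibitors PD0325901 and CHIR99021. The repeated libraries are technical replicates of a single line, so their p-values measure the spread between libraries of that line and say nothing of other lines of the genotype.

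H3K9me3 marks heterochromatin. In embryonic stem cells much of it is laid down by the methyltransferase SETDB1, which is brought to DNA by TRIM28 and by KRAB zinc finger proteins that each recognise a sequence, often in a transposable element. Mouse strains differ in their sets of KRAB zinc finger genes, and chromosome 13 holds a large cluster of them. H3K27ac marks active promoters and enhancers. A segment of chromosome 13 can only act on the members in trans, since none of them lies on that chromosome.

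The central 240 bases of 4 members are given from the RefSeq sequence of GRCm38.p6, plus strand. Bases that the reference marks as repeats are in capitals. This is reference sequence and not that of the D2 lines, whose own bases at the members may differ. The first 2 kept H3K9me3 on D2 chromosomes whichever segment was present, and the last 2 had it with the D2 segment in either background. Drosha, whose product cuts primary microRNA transcripts, holds the first in an intron at chr15:12872865-12873104. The second is in an intron of Ppp1r37, a regulator of protein phosphatase 1, at chr7:19543708-19543947. The third lies in an intron of Clybl, a mitochondrial lyase, at chr14:122300340-122300579. The fourth is intergenic, 3837 bp from Itgb2, the leukocyte integrin beta 2 chain, at chr10:77569629-77569868.
Drosha member: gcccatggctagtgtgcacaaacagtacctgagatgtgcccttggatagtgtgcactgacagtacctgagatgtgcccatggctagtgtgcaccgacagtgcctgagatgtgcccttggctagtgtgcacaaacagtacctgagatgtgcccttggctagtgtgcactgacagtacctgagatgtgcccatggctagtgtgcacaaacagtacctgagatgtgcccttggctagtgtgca
Ppp1r37 member: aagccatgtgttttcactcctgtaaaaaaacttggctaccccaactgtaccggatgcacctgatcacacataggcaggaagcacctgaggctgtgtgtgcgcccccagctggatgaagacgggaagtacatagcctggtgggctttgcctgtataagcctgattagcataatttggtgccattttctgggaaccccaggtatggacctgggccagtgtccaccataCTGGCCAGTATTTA
Clybl member: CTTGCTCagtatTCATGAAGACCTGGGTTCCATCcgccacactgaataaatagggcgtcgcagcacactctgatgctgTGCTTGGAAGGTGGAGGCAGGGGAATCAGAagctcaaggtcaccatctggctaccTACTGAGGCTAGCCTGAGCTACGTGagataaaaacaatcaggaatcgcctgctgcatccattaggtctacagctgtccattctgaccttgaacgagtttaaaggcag
Itgb2 member: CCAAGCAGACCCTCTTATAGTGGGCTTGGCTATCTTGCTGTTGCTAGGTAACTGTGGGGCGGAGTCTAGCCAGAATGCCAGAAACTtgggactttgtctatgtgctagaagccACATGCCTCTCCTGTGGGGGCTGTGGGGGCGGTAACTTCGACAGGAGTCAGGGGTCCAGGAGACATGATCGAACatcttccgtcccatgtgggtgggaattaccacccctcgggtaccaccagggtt
The Drosha window has 0 masked bases but is a tandem repeat with a period of 37 bases. The Ppp1r37, Clybl and Itgb2 windows have 14, 84 and 160 masked bases. The 4 windows hold 1, 3, 6 and 6 CpG sites in that order.

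An H3K9me3 library held between 1487862 and 2559262 counts (separate lines) or between 1538145 and 2185977 (repeated). An H3K27ac library held between 15444270 and 18272793, or between 8735674 and 11543469. The B6 libraries that chose the members held 1487862 to 1687002 counts and the D2 libraries 1981703 to 2559262, and the limits were set on counts without scaling. In each line 1 pair of repeated H3K27ac samples showed a difference smaller than sampling noise and was counted as 1 sample, which leaves n = 2 per line. D2-13B6 replicate 1 stood apart from the other libraries of its line for both marks, with chi-square per degree of freedom of 2.46 and 2.47 for H3K9me3 against 1.21 between the other two, and of 2.81 and 2.79 for H3K27ac. H3K9me3 and H3K27ac were also higher over the whole of chromosome 11 in D2-13B6, where the median log2 fold change of D2 minus D2-13B6 was -0.49 and -0.29. On chromosome 13 these medians were 0.27 and 0.20, on X 0.21 and -0.15 and on Y 0.20 and -0.25. For B6-13D2 minus B6 they were 0.01 and 0.02 on chromosome 13. No member lies on chromosomes 13, X or Y, and the part of these shifts in the comparisons was not tested. H3K27ac over the start sites of 12 pluripotency genes summed to 907 to 1106 CPM (counts scaled to a common, TMM-adjusted library size) in the 4 lines, with Esrrb and Fgf4 at 1.52 CPM or less. Markers of trophoblast summed to 16.1 to 33.1 CPM and those of feeder fibroblasts to 6.71 to 19.0, both lowest in B6. Sums for neural (3.71 to 8.77 CPM), epiblast or mesoderm (7.25 to 11.8) and primitive endoderm markers (6.16 to 9.94) were lowest in B6-13D2 and higher in both lines on D2 chromosomes than in both on B6 chromosomes. These lists are short: of the 2 neural genes Sox1 read 2.17 and 2.29 CPM in B6 and B6-13D2 and 5.93 and 6.46 in D2-13B6 and D2, while Pax6 read 2.35, 1.41, 1.54 and 2.31, and 3 of 5 primitive endoderm genes and 1 of 4 feeder genes, Postn, overlapped no region. The part of these markers in the results was not tested. In bulk chromatin, fewer cells with the mark and less mark per cell cannot be told apart.

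The values that chose the members are given as a description. The summed count over the D2 lines ran from 60 to 252 with a median of 76, and the medians per library were 24, 29 and 26 counts. In each of the B6 libraries the median was 1 count. Of the 215 members, 80 had a B6 sum of 5, 62 a sum of 4, 44 a sum of 3, 18 a sum of 2, 9 a sum of 1 and 2 a sum of 0. The B6 limit therefore falls where regions are dense: 77 regions with the D2 sum had a B6 sum of 6. Their median in the repeated libraries was 2.98 CPM in B6 and 9.31 in D2, beside 2.23 and 8.50 for the 80 members just inside. At the other limit, 13 members had a D2 sum of 60 or 61 and 16 regions missed it with 58 or 59, and their D2 medians were 7.85 and 6.91 CPM. The strain fit over the separate lines called all 214 members it tested, against 17.3% of tested regions, and nothing is read from that count because the rule used these libraries.

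The highest D2 sum, 252, belonged to the Drosha member at chr15:12872443-12873527, with 70, 109 and 73 counts in the D2 lines and 2, 0 and 2 in the B6 lines. The next was chr9:64306480-64307377 over a coding exon of Dis3l, a nuclease of the cytoplasmic exosome, with 62, 83 and 66 against 2, 0 and 2. Its neighbour at chr9:64302871-64303579, in an intron of the replication fork factor Tipin, had 60, 64 and 56 against 0, 3 and 2. Coding sequence was also covered in Hspbp1, a partner of Hsp70, at chr7:4683889-4685666, with 38, 80 and 56 against 1, 1 and 2. In all of these the D2 library with the most counts was line 5-5, which is also the deepest library.

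Sequenced again, D2 5-5 and B6 5-1 kept the difference at most members. Summed over all 215, H3K9me3 stood at 2548 and 2406 CPM in the D2 libraries and at 549, 612 and 589 in the B6 libraries. The mean was higher in D2 at 211 members. At 190 of the 215 (88.4%) the D2 libraries were all above the B6 libraries, against 19.2% of all regions. The fit tested the 161 members that passed a filter on low counts, and it called 114 of them higher in D2 at an adjusted p under 0.05 (edgeR quasi-likelihood F-test, Benjamini-Hochberg over 86874 regions), where 4.58% of all tested regions were called in that direction. The median log2 fold change was 2.05 over the tested members and 0.04 over all tested regions. These are the lines that chose the members, so the result repeats the measurement and does not support the choice. "Only in D2" also holds less strictly here than in the rule: the B6 libraries held up to 17, 29 and 30 counts at a member. An exon of Notch3 at chr17:32142930-32143937 read 2.91, 7.61 and 9.58 CPM in B6 and 8.95 and 10.9 in D2, which overlap. DESeq2 called 58 members instead of 114, and gave no adjusted p to 44 of the 114.

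**Figure D1:**
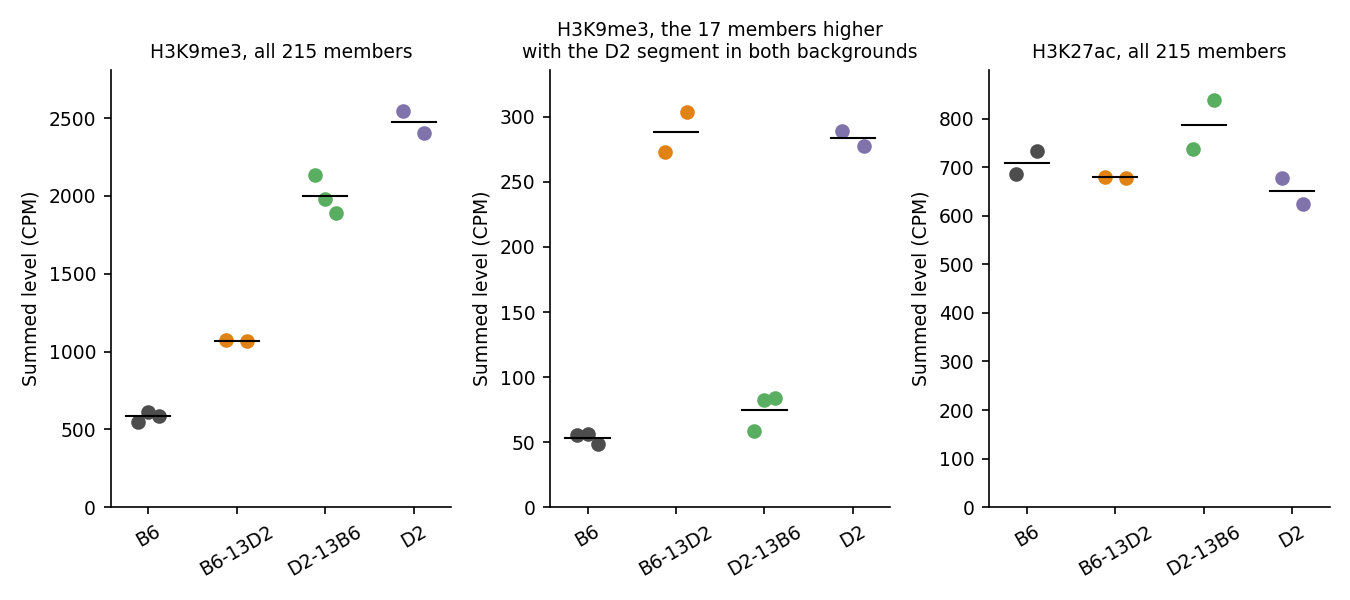
Summed level in CPM per library (points) and line mean (horizontal lines) for the 4 repeated lines. H3K9me3 over all 215 members stepped from 549 to 612 CPM in B6 up to 2406 and 2548 in D2, whereas over the 17 members in the middle panel B6-13D2 lay at the level of D2 and D2-13B6 near B6. H3K27ac over the members ranged from 624 to 838 CPM with no such step.

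Across the congenic lines the summed level stood in the order B6, B6-13D2, D2-13B6, D2. It was 583 ± 32.0 CPM in B6 (SD, n = 3), 1069 ± 4.24 in B6-13D2 (n = 2), 2002 ± 124 in D2-13B6 (n = 3) and 2477 ± 100 in D2 (n = 2), with no overlap between neighbours in that order. The 54 members too low to be tested gave 90.2, 107, 208 and 252 CPM in the same order. Without chromosome 11 the 4 means were 529, 984, 1806 and 2289 CPM. Most of the level thus stayed with the D2 chromosomes when the B6 segment was put in, and a smaller part appeared on B6 chromosomes with the D2 segment.

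The comparison of D2-13B6 with B6-13D2 used neither line of the rule, and asked whether a member went with the D2 chromosomes outside the segment or with the segment. It split the members. Of the 161 tested, 75 in 69 loci were higher in D2-13B6, where 8.6% of all tested regions were, and 32 in 31 loci were lower, against 11.8%. The median log2 fold change was 1.44 over tested members and 0.03 over all tested regions. Without the filter, 126 of the 215 were higher without overlap of the libraries (58.6%, all regions 24.0%) and 41 were lower (19.1%, all regions 11.03%). DESeq2 called 51 higher and 12 lower. Against B6, the line D2-13B6 was higher at 93 members, where 8.75% of tested regions were. Without D2-13B6 replicate 1 the counts were 73 higher and 28 lower, and without chromosomes of shifted median 63 and 29.

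At the 75 members, chosen by that call, the level went with the D2 background outside the segment. Whether this came from the DNA at the member itself or from other D2 DNA in the same lines cannot be told apart here. Their median was 2.23 CPM in B6, 2.05 in B6-13D2, 11.5 in D2-13B6 and 12.2 in D2. The Drosha member read 5.09, 0 and 2.21 CPM in B6, 1.37 and 1.35 in B6-13D2, 45.9, 39.6 and 28.1 in D2-13B6 and 34.0 and 31.0 in D2. Both lines on D2 chromosomes were far above both on B6 chromosomes, with a log2 fold change of 4.69 ± 0.46 (SE) between the congenic lines (adjusted p = 2.28e-16, edgeR). The member in Ppp1r37 had 0 counts in both B6-13D2 libraries and 9.89, 8.96 and 13.3 CPM in D2-13B6. With a floor of 3 counts over the group in place of 0, the ratio was 10.6. The counting interval of the ratio starts at 8.26, below this value.

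A pair of members lies in introns of Xpot, the exportin that carries tRNA out of the nucleus. At chr10:121595320-121595946 the B6-13D2 libraries held 0 and 0.677 CPM and the D2-13B6 libraries 13.5, 11.95 and 9.13, a ratio of 33.4 with a counting interval of 5.69 to 1348 from 44 counts against 1. At chr10:121591136-121591594 they read 1.37 and 2.03 against 16.2, 17.2 and 12.6 CPM. An intergenic member at chr10:117916168-117916708, 70133 bp from the small GTPase gene Rap1b, read 0.684 and 0 against 12.6, 9.71 and 9.83 CPM. Groups did not overlap at any of these. Other members of this kind lay in introns of Armc10 and of Mrnip, and in a coding exon of the tight junction gene Cgn. The last, which has a second copy in the genome, read 4.79 and 1.35 CPM in B6-13D2 and 24.3, 16.4 and 12.6 in D2-13B6, with a log2 fold change of 2.47 ± 0.44 (adjusted p = 4.04e-06, edgeR).

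**Figure D2:**
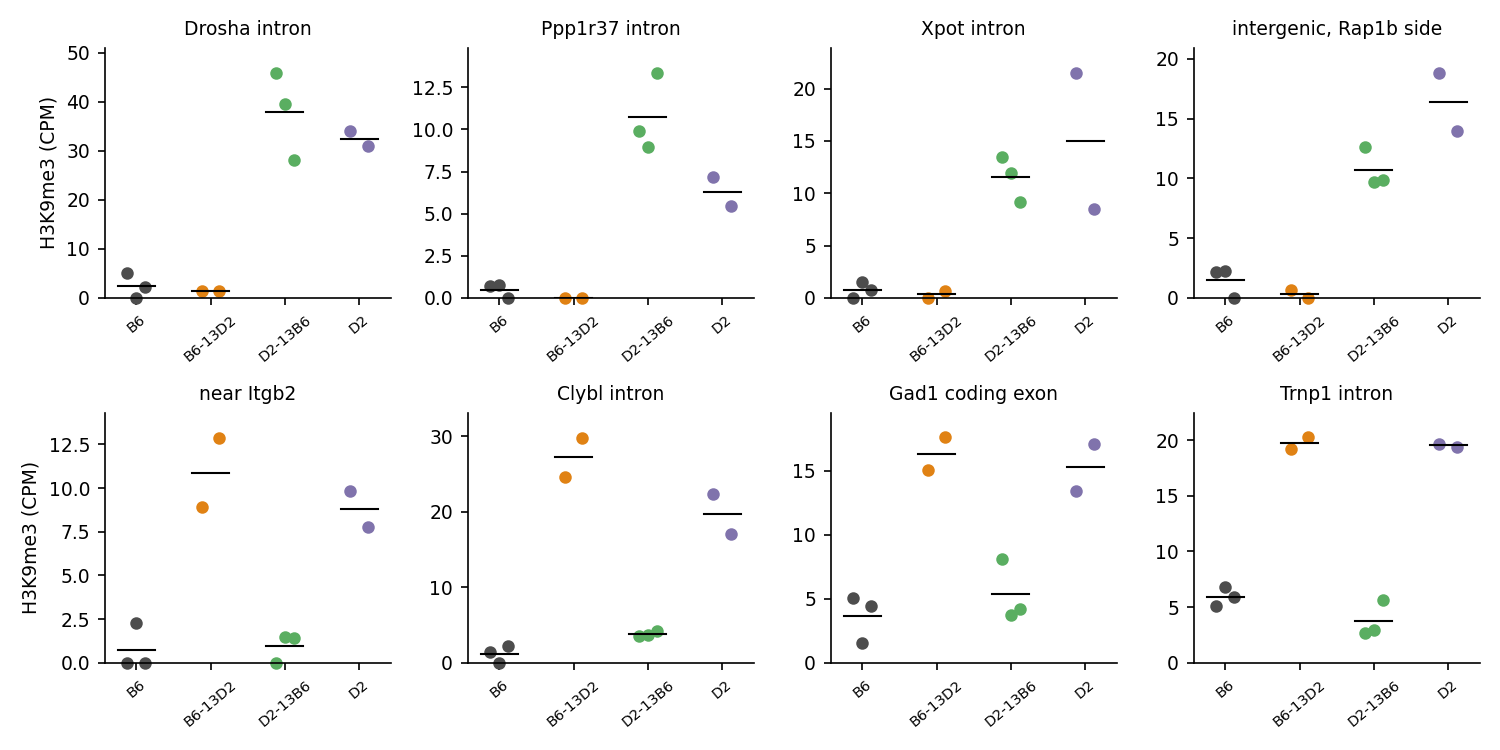
H3K9me3 in CPM per repeated library (points) and line mean (horizontal lines) at 8 members. In the top row D2-13B6 sits with D2, as at the Drosha member with 28.1 to 45.9 CPM, and in the bottom row B6-13D2 sits with D2, as at the Clybl member with 24.6 and 29.8 CPM.

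Another 3 members lie in the cluster of type I interferon genes on chromosome 4, which encode antiviral cytokines. The member at chr4:88781275-88781713, 418 bp from Ifnz, read 8.72, 2.28 and 4.42 CPM in B6, 5.47 and 2.71 in B6-13D2, 52.2, 50.8 and 45.0 in D2-13B6 and 31.3 and 27.1 in D2. That at chr4:88785584-88785817 over a coding exon of Gm13276 read 8.21 and 8.80 CPM in B6-13D2 against 56.7, 38.8 and 40.7 in D2-13B6. The third, at chr4:88805643-88806050 over an untranslated region of Gm13288, read 6.16 and 3.39 against 25.2, 12.7 and 14.8. The 3 sequences have 14, 14 and 15 copies in the reference genome, so reads from other copies may be counted in them. The members at chr14:53615458-53615822 and chr14:53726229-53726553, far from any protein-coding gene, have 5 copies each. The first read 0.684 and 2.03 CPM in B6-13D2 and 19.8, 35.9 and 42.1 in D2-13B6.

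The segment itself, which may not cover the same interval in the 2 congenic lines, was compared in each background. These 2 comparisons share no library with each other, but each shares libraries with the comparison above, and D2 5-5 and B6 5-1 entered the rule, which favours a higher level with D2 alleles in both. On D2 chromosomes, 23 of 161 tested members were higher in D2 than in D2-13B6, where 1.81% of all tested regions were, and 1 was lower, against 0.395%. On B6 chromosomes, 29 were higher in B6-13D2 than in B6, where 1.23% of tested regions were. By the same edgeR test 0 were lower, against 0.458%; 0 members were lower at an unadjusted p under 0.05, and DESeq2 also called 0. The median log2 fold change over tested members was 0.31 on D2 chromosomes and 0.44 on B6 chromosomes, beside -0.01 and -0.03 over all tested regions. Over all 215 members, 73 were higher in D2 than D2-13B6 without overlap (34.0%, all regions 8.08%), and 68 higher in B6-13D2 than B6 (31.6%, all regions 9.50%). Lower without overlap were 20 in D2 (9.3%, all regions 13.63%) and 21 in B6-13D2 (9.8%, all regions 14.43%). The D2 count rests on few libraries: it was 9 without D2 replicate 1 and 13 without D2 replicate 2, which leave a single D2 library assumed to vary like the other lines, and 15 without D2-13B6 replicate 3. DESeq2 called 6 and 15 members in place of 23 and 29, and gave no adjusted p to 12 and 9 of the members called with edgeR.

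In both backgrounds 17 members were higher with the D2 segment, in 16 loci on 12 chromosomes, where 0.616% of all tested regions were. These calls chose the 17, so their H3K9me3 levels below are a description. Summed over them, H3K9me3 was 53.4 ± 4.15 CPM in B6, 288 ± 21.9 in B6-13D2, 74.7 ± 14.1 in D2-13B6 and 283 ± 8.13 in D2 (SD, n = 3, 2, 3 and 2). The lines with the D2 segment and those without it did not overlap, although each pair holds both backgrounds. The number was 7 without D2 replicate 1, 11 without D2 replicate 2 or without D2-13B6 replicate 3, and 6 with DESeq2. It was 14 without D2-13B6 replicate 1 and 16 without chromosome 11.

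**Figure D3:**
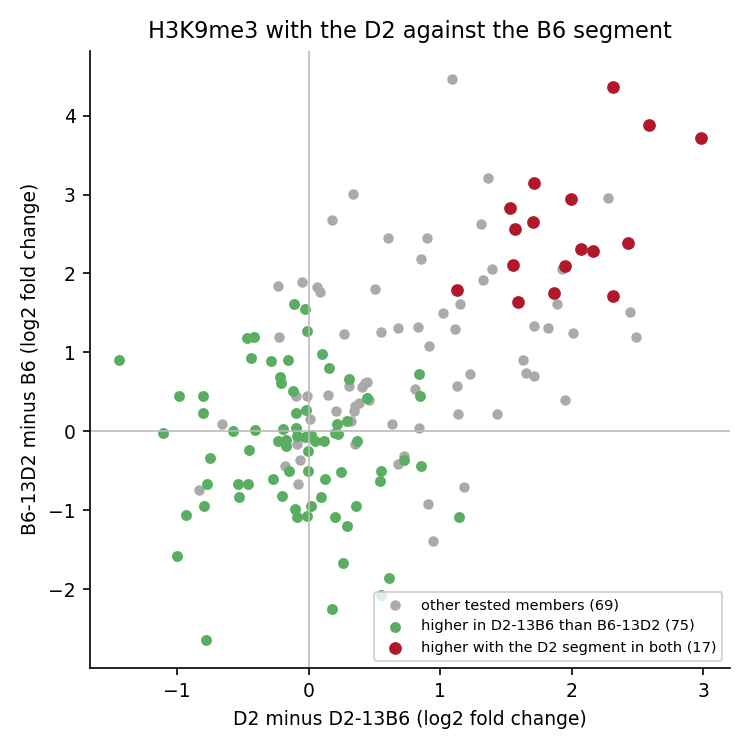
H3K9me3 log2 fold change with the D2 against the B6 segment at the 161 tested members, on D2 chromosomes (horizontal axis) and B6 chromosomes (vertical axis). The 17 members called in both lie above 1.12 on both axes, and the 75 members higher in D2-13B6 than in B6-13D2 lie on both sides of 0.

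The Clybl member at chr14:122300139-122300781 read 1.45, 0 and 2.21 CPM in B6, 24.6 and 29.8 in B6-13D2, 3.60, 3.74 and 4.21 in D2-13B6 and 22.4 and 17.1 in D2. With the D2 segment the level was higher by a log2 fold change of 4.36 ± 0.45 on B6 chromosomes (adjusted p = 8.29e-15) and of 2.31 ± 0.41 on D2 chromosomes (adjusted p = 1.67e-05, edgeR). The members near Itgb2 lie side by side. The first, at chr10:77569545-77569953, read 0, 2.28 and 0 CPM in B6 and 0, 1.49 and 1.41 in D2-13B6, but 8.90 and 12.9 in B6-13D2 and 9.85 and 7.76 in D2. Its neighbour at chr10:77570084-77570636 had 1 count in each B6 library and read 10.95 and 13.5 CPM in B6-13D2, 1.80, 2.99 and 1.41 in D2-13B6 and 14.3 and 11.6 in D2. At all 3 members the groups with and without the D2 segment did not overlap.

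Several of the 17 lie in genes of known function. A coding exon of Gad1, which makes the transmitter GABA, is covered at chr2:70573809-70574290, with 5.09, 1.52 and 4.42 CPM in B6 and 15.1 and 17.6 in B6-13D2. On D2 chromosomes the same exon read 8.10, 3.74 and 4.21 in D2-13B6 and 13.4 and 17.1 in D2. The intron of Trnp1, a nuclear protein of neural progenitors, at chr4:133493930-133494942 read 5.09, 6.85 and 5.89 CPM in B6, 19.2 and 20.3 in B6-13D2, 2.70, 2.99 and 5.62 in D2-13B6 and 19.7 and 19.4 in D2. The intron of Srebf2, a transcription factor of cholesterol synthesis, at chr15:82166131-82167543 read 0.726, 3.04 and 2.21 CPM in B6 and 15.1 and 14.2 in B6-13D2. In the 2 other lines it read 1.80, 8.22 and 2.81 (D2-13B6) and 9.85 and 15.5 (D2). Cyclin D3, encoded by Ccnd3, has its intron covered at chr17:47531108-47532302, with 5.09, 0.761 and 1.47 CPM in B6, 13.0 and 12.2 in B6-13D2, 0.899, 4.48 and 4.92 in D2-13B6 and 17.01 and 13.96 in D2. In each of these 4 members every library with the D2 segment was above every library without it.

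The others lie in introns of Tbxas1, the thromboxane synthase, and of Kidins220, a scaffold of neurotrophin signalling, in a coding exon of Afap1l1, and in an exon of the non-coding gene 1700017J07Rik. The intergenic ones are nearest to Arl4c, Fmod, Tac2, Arhgap27, Fam43a and Gm14288. Across the 17, log2 fold changes ran from 1.13 to 2.98 on D2 chromosomes and from 1.64 to 4.36 on B6 chromosomes. The member nearest to Gm14288, at chr2:175803838-175804139, has 26 copies in the reference and is the only member of the 17 with a second copy. It read 7.99, 7.61 and 2.95 CPM in B6, 17.1 and 25.1 in B6-13D2, 3.60, 3.74 and 2.81 in D2-13B6 and 12.5 and 12.4 in D2.

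A further 12 members were called on B6 chromosomes alone and 6 on D2 chromosomes alone, where 0.618% and 1.19% of all tested regions were. A call in one background alone does not show that the segment acted differently there. The difference between the 2 segment effects was tested at all 161 and called at 1, where 0.389% of all tested regions were. An intron of Wipf1, a partner of the actin regulator WASP, at chr2:73521712-73522246 read 0, 1.52 and 0 CPM in B6 and 10.3 and 15.6 in B6-13D2, and 0.899, 2.99 and 4.92 in D2-13B6 and 6.27 and 6.98 in D2. An intron of the actin-capping gene Tmod3 at chr9:75521732-75522214 read 0.726, 1.52 and 1.47 against 11.6 and 8.80, and 0.899, 2.24 and 0.702 against 4.48 and 8.53. Both were higher with the D2 segment without overlap in each background, and were called on B6 chromosomes only. In an intron of Thada, at chr17:84268484-84268940, the level was 10.7 and 12.4 CPM in D2, 1.80, 2.24 and 2.11 in D2-13B6, 4.11 and 6.09 in B6-13D2 and 0.726, 2.28 and 2.21 in B6. This is the first of 3 members side by side in that gene, and the others were called in neither background.

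The member lower in D2 than in D2-13B6 lies in introns of Gm26510 and Gm26561 at chr17:70912844-70913664. It read 25.2, 23.2 and 24.6 CPM in D2-13B6 and 11.6 and 10.9 in D2, beside 4.36, 3.80 and 7.37 in B6 and 4.79 and 5.42 in B6-13D2. The log2 fold change was -1.11 ± 0.32 (adjusted p = 0.0374, edgeR), and the call was lost without either D2 library, without D2-13B6 replicate 2 or 3, with no filter (adjusted p = 0.189, edgeR), with the replicate number as a block (0.117) and with DESeq2 (0.303). A coding exon of Stat3, the transcription factor through which LIF sustains these cells, was called between D2 and B6 and in no congenic comparison. At chr11:100893085-100893977 it read 2.91, 6.85 and 2.21 CPM in B6, 5.47 and 14.2 in B6-13D2, 4.50, 8.96 and 8.43 in D2-13B6 and 17.01 and 15.5 in D2.

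H3K27ac, which the rule did not use, was lower in D2 at most of the regions that overlapped members. In the separate lines, 110 members overlapped 102 regions of the H3K27ac list, of which 101 were tested. In D2, 71 of them were lower and 14 higher, where 25% and 24.3% of all tested regions were. The median log2 fold change was -0.50, beside -0.01 over all tested regions. The region at the Clybl member read 5.82, 5.98 and 5.32 CPM in the B6 lines and 1.35, 1.88 and 1.498 in the D2 lines. That at the pair near Itgb2 read 7.65, 7.996 and 7.22 against 1.48, 2.10 and 1.67. An intron of Peli2, a ubiquitin ligase of innate immune signalling, read 6.68, 6.55 and 6.90 against 0.899, 0.993 and 0.692 CPM, a log2 fold change of -2.95 (adjusted p = 1.91e-18, edgeR). None of the 3 had an overlap between the strains.

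The opposite case was a member in Vps53, a subunit of a vesicle tethering complex, which also overlaps Glod4, at chr11:76150857-76151717. H3K27ac there was 6.62, 8.50 and 8.80 CPM in the B6 lines and 67.4, 67.1 and 71.9 in the D2 lines, and H3K9me3 was 1, 2 and 2 counts against 24, 30 and 24. These H3K9me3 counts chose the member, and it was too low to be tested in the repeated libraries, where B6 read 1.45, 0.761 and 2.95 CPM and D2 1.79 and 6.98. An intergenic member 30269 bp from the potassium channel gene Kcnj3, at chr2:55405195-55405701, had H3K27ac of 1.66, 1.64 and 1.08 CPM in B6 and 7.38, 8.71 and 7.15 in D2. The 3 interferon members were also higher for H3K27ac in the D2 lines, by log2 fold changes of 1.35, 1.16 and 1.74 (adjusted p = 7.07e-11, 9.51e-08 and 1.26e-13, edgeR).

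In the repeated libraries 183 members passed the filter for H3K27ac. D2 was lower than B6 at 51 and higher at 25, where 13.4% and 14.7% of tested regions were. Between D2-13B6 and B6-13D2, 35 were lower and 43 higher, against 13.7% and 16.8%. DESeq2 called 29 and 12 in the first of these comparisons and 18 and 19 in the other. With the D2 segment, 21 members were lower in D2 than in D2-13B6 and 3 higher, against 5.24% and 1.44%, and 21 were lower in B6-13D2 than in B6 and 7 higher, against 5.4% and 7.6%. The difference between the 2 segment effects was called at 12 members, where 5.3% of tested regions were. The first of the segment counts was 7 without D2 replicate 2. The other was 10 without B6 replicate 3 and 11 without B6-13D2 replicate 2. Because of the summed pairs, each of these fits leaves 1 sample in that line, which is assumed to vary like the other lines. DESeq2 called 10 and 7 members lower in the segment comparisons.

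**Figure D4:**
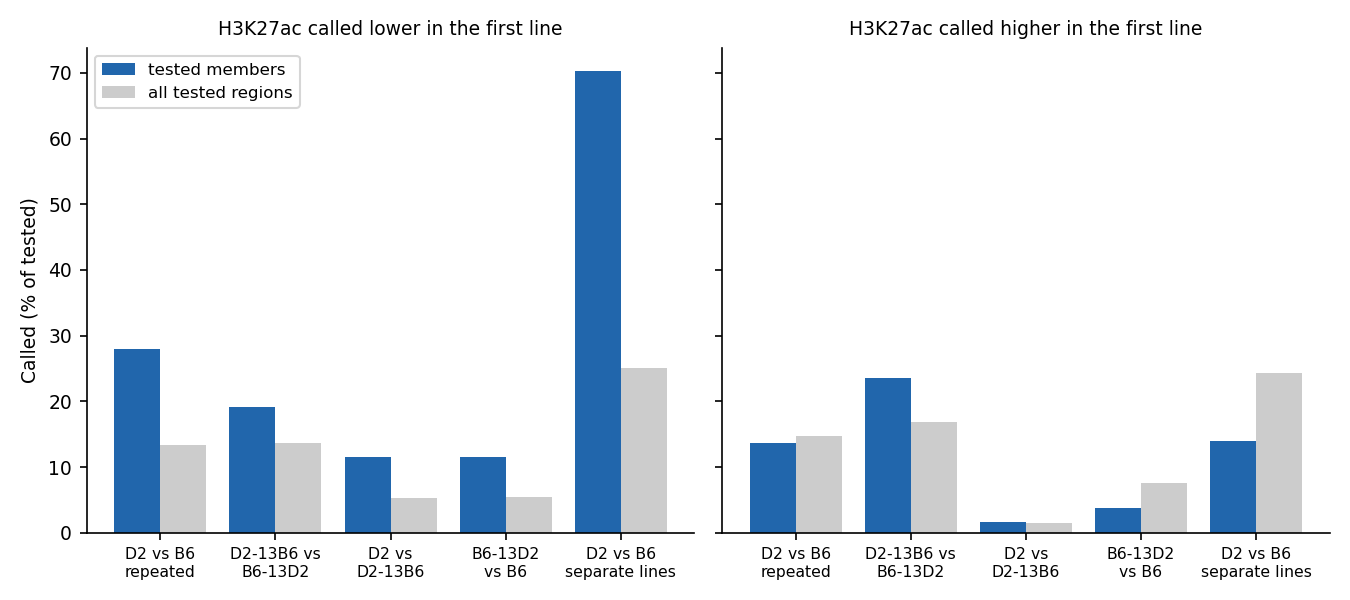
Share of tested members (blue) and of all tested regions (grey) called lower (left) and higher (right) for H3K27ac in the first line of each comparison, in percent. In the separate lines 70.3% of the regions over members were lower in D2, against 25% of all tested regions, and 13.9% were higher, against 24.3%.

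Where H3K9me3 came with the segment, H3K27ac was lower with it more often than higher within each background. Of the 17 members, 10 were lower for H3K27ac in D2 than B6 and 0 higher, 7 lower in B6-13D2 than B6 and 0 higher, and 4 lower in D2 than D2-13B6 and 0 higher. Of all tested regions 13.4%, 5.4% and 5.24% were lower in these comparisons. Between the congenic lines, where D2-13B6 has the D2 background and B6-13D2 the D2 segment, 4 of the 17 were higher in D2-13B6 and 1 was lower, against 16.8% and 13.7% of all tested regions. In the separate lines 12 of the 13 members that overlapped a tested region were lower in D2, where 25% of all tested regions were. These are counts of members, and the 2 near Itgb2 share 1 region. The exon of 1700017J07Rik at chr2:168977668-168978712 was lower in all of these comparisons but that of the congenic lines, where D2-13B6 was the higher line. H3K27ac there was 19.0 and 18.7 CPM in B6, 9.26 and 7.57 in B6-13D2, 15.1 and 17.2 in D2-13B6 and 6.95 and 5.91 in D2. H3K9me3 at the same place was 1.45, 2.28 and 1.47 CPM, 14.4 and 13.5, 3.60, 7.47 and 4.21, and 25.1 and 17.1 in that order of lines. The 2 marks thus stood in opposite orders in the 4 lines. The intron of Tbxas1 at chr6:38906779-38907750 was also lower in each comparison but that of the congenic lines, where D2-13B6 was again higher. H3K27ac there was 1.504 and 1.34 CPM in B6, 0.512 and 0.831 in B6-13D2, 3.05 and 1.83 in D2-13B6 and 0.556 and 0.682 in D2. Near Tac2, which encodes neurokinin B, H3K27ac at chr10:127734372-127735081 read 6.42 and 7.73 CPM in B6, 3.26 and 2.58 in B6-13D2, 1.83 and 1.78 in D2-13B6 and 1.45 and 1.59 in D2. There it was low on D2 chromosomes with either segment, while H3K9me3 was low in D2-13B6.

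At the 75 members that followed the background, H3K27ac went both ways in the repeated libraries. Of the 70 tested, 15 were lower and 17 higher in D2-13B6 than in B6-13D2, and 17 were lower and 14 higher in D2 than in B6. Over all tested regions the shares were 13.7% and 16.8%, and 13.4% and 14.7%. In the separate lines, whose groups include those of the rule, the D2 lines were lower more often than higher: 41 of the 75 overlapped a tested region, and 27 of these were lower and 9 higher, beside 25% and 24.3% of all tested regions. The 41, 27 and 9 are counts of members, which can share a region. At the intergenic member on the side of Rap1b it was 2.42 and 3.51 CPM in B6-13D2 and 0.305 and 1.05 in D2-13B6 (log2 fold change -1.86 ± 0.36, adjusted p = 4.4e-05, edgeR). At the Drosha member it was near 1 CPM in every line, from 1.00 to 1.59. At the member over Gm11635, chr11:101610341-101611369, it was 5.35 and 3.88 CPM in B6-13D2 and 34.3 and 38.3 in D2-13B6, where H3K9me3 was 2.74 and 1.35 against 15.3, 21.7 and 14.8. H3K27ac and H3K9me3 were both higher there on D2 chromosomes.

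The members had a median width of 581 bp, beside 806 bp in the 19773 regions with the same D2 sum and 551 bp in all regions off chromosomes 13, X and Y. Of the 215, 30 cover a coding exon, 9 an untranslated region, 17 an exon of a non-coding gene or pseudogene, 81 an intron and 78 lie between genes. Protein-coding genes hold 54.0% of them, beside 30.7% of the regions of that sum and 53.0% of all. Masked bases, copies and motifs were read from the reference genome and not from D2 sequence. The median share of masked bases was 14.4%, beside 48.9% in the regions of that sum and 15.6% in all. More than 50% of the bases were masked in 10.2% of members and in 49.0% of the regions of that sum. A second copy in the genome, covering at least 80% of the region at 90% identity or more, was found for 14 members (6.5%) and for 23.9% of the regions of that sum, and 10 of the 14 are among the 75 that followed the background. A gene named as a zinc finger holds 1 member, beside 2208 of the 229016 regions off those chromosomes. Olfactory receptor, vomeronasal receptor, antigen receptor and Skint genes hold 0 members, beside 312, 176, 118 and 44 regions. The motif TGCCGC, read on both strands, is in 20 members (9.3%) and in 11.5% of regions of that sum and of similar width. In masked share and gene content the members thus lay nearer to the whole list than to the regions of the same D2 sum, with no test made. Members per chromosome ran from 3 on chromosome 16 to 19 on chromosomes 1 and 11.

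After the repeat in the Drosha member was seen, the reference sequence of all members was searched for windows of 100 bases with a repeat. In such a window at least 80% of bases equal the base 1 period downstream, for periods of 10 to 100 bases. Such a window was found in 11 members (5.12%), beside 4.22% of regions with the same D2 sum and similar width. It was found in 6 of the 75 members that followed the background and in 0 of the 17 that followed the segment. The share among the members was near that of the other regions.

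Other regions of the list were measured by their distance from a member. Next to the 75 that followed the background, other regions within 5 kb held H3K9me3 at 3.89 ± 0.27 CPM per kb in B6, 3.91 ± 0.21 in B6-13D2, 13.0 ± 0.10 in D2-13B6 and 11.8 ± 0.27 in D2 (SD over libraries, 123 regions). The higher level on D2 chromosomes was still seen at 50 to 100 kb, at 7.33 and 6.67 CPM per kb in D2-13B6 and D2 beside 5.11 and 4.87 in B6 and B6-13D2. Next to the 17 that followed the segment, regions within 5 kb stood at 4.85 ± 0.40, 5.70 ± 0.50, 5.51 ± 1.28 and 6.36 ± 1.61 in B6, B6-13D2, D2-13B6 and D2 (36 regions). In the 17 themselves the values were 3.74, 20.2, 5.23 and 19.8 CPM per kb. Within 5 kb the means of D2 and D2-13B6 differed by less than their SDs, while B6-13D2 was above B6 by more than either SD. At 50 to 100 kb the lines on D2 chromosomes were the higher ones here too, at 7.05 and 6.78 beside 5.38 and 5.48. The difference at that distance was thus not particular to the 75. The level per kb over the whole list was not measured.

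**Figure D5:**
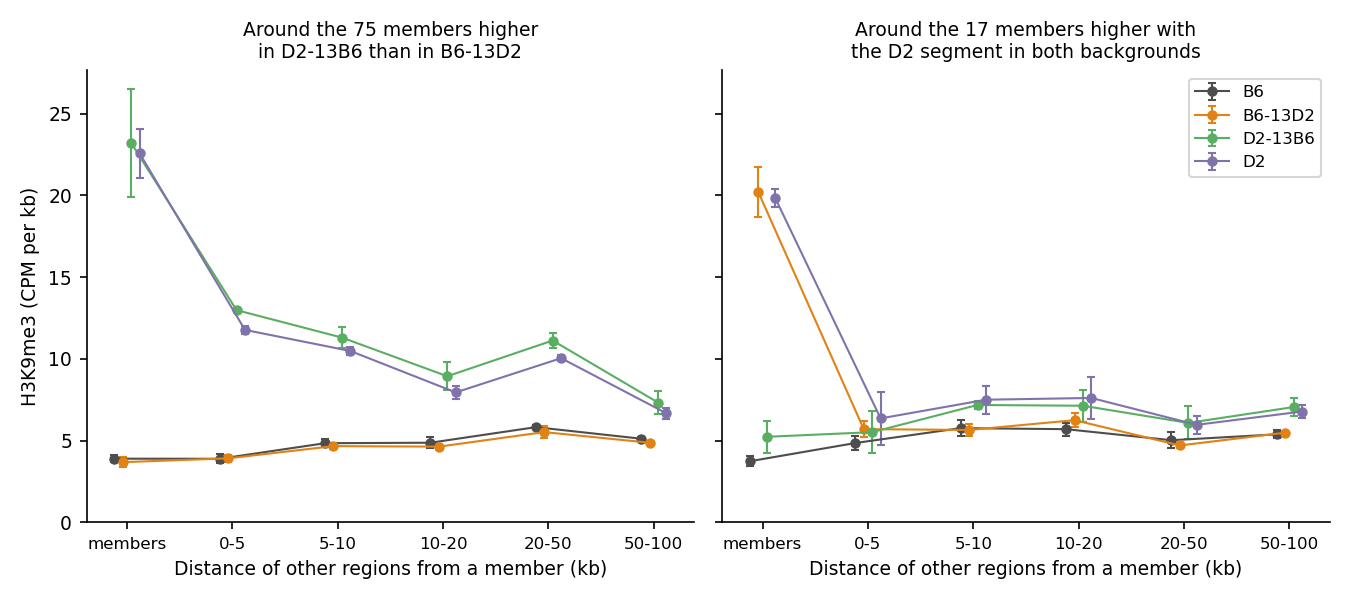
H3K9me3 in CPM per kb (mean and SD over libraries) in members and in other regions by distance in kb, per line. Around the 75 members on the left, the lines on D2 chromosomes stayed above the others at each distance, from 13.0 and 11.8 against 3.89 and 3.91 within 5 kb. Around the 17 on the right, the level fell from 20.2 and 19.8 in the members to 5.70 and 6.36 within 5 kb.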

How the data were processed

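The submitters' processing notes name Trimmomatic 0.39, HISAT2 2.2.1, MACS 1.4.2, bedtools 2.9.2, edgeR and the build mm10. The deposited tables hold raw read counts per region, not normalized, for a shared list of 248336 regions (both H3K9me3 sets and repeated H3K27ac) and a separate list of 96988 regions (H3K27ac of the separate lines). They cover 34 libraries in 12 groups, and 2 columns that matched no sample were not used. Starts were read as 0-based and printed from 1. Genes are from GENCODE M21 and sequence from RefSeq GRCm38.p6.

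Counts were tested with edgeR 4.0.16 (TMM, filterByExpr with a minimum count of 10 and total of 15, quasi-likelihood F-test, Benjamini-Hochberg over all tested regions, threshold 0.05), with each table fitted over its own groups. The procedure was tested on simulated data. CPM uses TMM-scaled library sizes, and copies were found with minimap2 2.31-r1302. No protocol says that repeated libraries came from separate cultures. Intervals cover counting error only. Named regions are those with the highest D2 sums, at the limits of the rule, with the largest called and non-overlapping changes per comparison, called in both segment comparisons, in loci of 3, or over coding exons or start sites. Members and lists were chosen with earlier results of these data known. Alternatives covered scaling, filters, DESeq2 1.42.0, stricter limits, loci, left-out libraries and a replicate block.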

Additional observations from a re-analysis of the deposited data

Results flagged for a closer look

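At 13 results a test of the difference between the segment's effects in the 2 backgrounds passed the threshold (edgeR, adjusted over all tested regions). Each value is the log2 fold change of B6-13D2 minus B6, less that of D2 minus D2-13B6. The members were called at about the rate of all tested regions, at 12 of 183 (6.56%) against 5.3% for H3K27ac and at 1 of 161 (0.621%) against 0.389% for H3K9me3, so these are values of single regions. The 2 congenic lines may carry different intervals of chromosome 13, so the 2 effects need not be those of the same segment. No explanation was tested.

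For H3K9me3 this was the region at chr12:86786428-86787886, nearest to Lrrc74a, with a difference of 2.50 ± 0.64 (SE, adjusted p = 0.0432): 2.68 on B6 chromosomes and 0.18 on D2 chromosomes. This call is weak: it was not made with no filter (adjusted p = 0.131), and it was lost in 7 of 10 fits that leave out 1 library (lost calls at 0.0729 to 0.545, edgeR). It was kept without B6 replicate 3, D2-13B6 replicate 1 or D2-13B6 replicate 2 and with the replicate block (0.0361), and DESeq2 gave no adjusted p. H3K27ac at the same region differed in the same direction, by 0.96 ± 0.24 (adjusted p = 0.011).

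For H3K27ac the count was 4 without D2 replicate 2 and 24 without D2-13B6 replicate 1, in place of 12. Each of these fits leaves 1 sample in that line, since the other 2 libraries were summed, and that sample is assumed to vary like the other lines. The members near Gpr37l1 and over Gm11635 were called in all 12 fits that leave out 1 library. The call near Gsdmc was lost in 6 of these fits, that in Ccdc73 in 3, those near Slain2 and at chr17:70912844-70913664 in 2 each, and each of the others in 1. The difference was positive at 9 members. It was 1.45 ± 0.24 near Gpr37l1 (adjusted p = 6.37e-05), with 0.52 on B6 and -0.93 on D2 chromosomes. It was 1.94 ± 0.51 in an intron of Ccdc73 (0.30 and -1.65), 1.82 ± 0.53 near Gsdmc (0.66 and -1.16) and 1.49 ± 0.39 near Slain2 (0.83 and -0.67). In an intron of Rabgap1l it was 0.98 ± 0.25 (0.66 and -0.31). On chromosome 11, where D2-13B6 was higher over the whole chromosome, it was 1.19 ± 0.26 over Gm11635, 1.04 ± 0.28 near Skp1a and 0.79 ± 0.18 in an intron of Msi2.

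At 3 members it was negative. Of these, 2 lie near Nr1h2, the oxysterol receptor LXR beta, with -2.24 ± 0.51 at chr7:44558397-44558986 (-2.37 on B6 chromosomes and -0.13 on D2 chromosomes) and -2.03 ± 0.52 at chr7:44560383-44561455 (-1.52 and 0.52). The third, chr17:70912844-70913664, had -1.39 ± 0.39 (-0.11 and 1.28), and is also the member with less H3K9me3 in D2 than in D2-13B6.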

How the results depend on the processing

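Among the comparisons called for a named member, no value changed sign in an alternative that tested it; the higher mean tested few members, and DESeq2 left some without an adjusted p. Scaling by library totals or by factors off chromosomes 13, X and Y kept every count within 1.5 times. Counts follow one order: H3K9me3 higher in D2 than B6, D2-13B6 than B6-13D2 and lower there, D2-13B6 than B6, D2 than D2-13B6, B6-13D2 than B6, and segment in both (114, 75, 32, 93, 23, 29 and 17). The stricter limits, which leave 22 members by construction, gave 16, 10, 5, 12, 6, 6 and 5. A mean of at least 20 counts gave 5, 5, 0, 5, 0, 0 and 0, with fewer regions tested. DESeq2 gave 58, 51, 12, 66, 6, 15 and 6. Leaving out 1 library gave 78 to 103, 52 to 73, 23 to 29, 77 to 85, 9 to 18, 23 to 28 and 7 to 16. The member lower in D2 than D2-13B6 was called by neither DESeq2, nor without a filter, nor with the block (0 each; 0 to 2 without 1 library), and the H3K9me3 interaction went from 1 to 0 with the stricter limits, DESeq2, no filter or the higher mean (0 to 2 without 1 library). For H3K27ac, in the order D2 lower and higher than B6, D2-13B6 lower and higher than B6-13D2, D2 lower and higher than D2-13B6, B6-13D2 lower and higher than B6 (51, 25, 35, 43, 21, 3, 21 and 7), the stricter limits gave 7, 2, 4, 3, 1, 1, 3 and 0 and DESeq2 29, 12, 18, 19, 10, 1, 7 and 3. The higher mean gave 16 for D2 above B6. The 12 H3K27ac differences between segment effects became 3 with the stricter limits, 6 with DESeq2, 25 with libraries not summed, with or without the replicate block, and 4 to 24 without 1 library. Leaving out 1 library gave 35 to 54, 18 to 24, 28 to 35, 32 to 47, 7 to 26, 2 to 3, 10 to 20 and 4 to 7. In the separate lines (71 lower, 14 higher) the stricter limits gave 13 and 1, and leaving out 1 library 63 to 69 and 13. The cause of these shifts was not tested.

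Replicate numbers are shared between lines. Deviations from the line mean correlated at -0.057 to 0.163 over 13 same-numbered H3K9me3 pairs and -0.062 to 0.068 over 18 H3K27ac pairs. Pairs of different number correlated at -0.163 to 0.106 over 24 and -0.070 to 0.101 over 36. The deviations of a line sum to 0, so the values of one kind partly fix those of the other. These ranges therefore cannot show whether the numbers pair the libraries. With the replicate block the 7 H3K9me3 counts were 110, 75, 29, 88, 18, 29 and 12. For H3K27ac the block, with libraries not summed, gave 13 members higher in B6-13D2 than B6 in place of 7, as did not summing alone (13). Medians of 3 or 4 counts per member in B6 and B6-13D2 libraries limit the precision of each fold change. Omitting chromosomes of shifted median, and all alternatives for the H3K27ac difference between segment effects, were chosen after seeing the data.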
